A study of Mus musculus with 16 samples.

Results

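The genes that set up and mark the pacemaker of the heart were examined in mouse embryos that had lost the chromatin remodeller gene *Chd7* from the anterior mesoderm. The set was chosen by name, from known roles in the sinus node and its precursors. It held the pacemaker channel genes *Hcn2* and *Hcn4*, the transcription factor genes *Shox2*, *Isl1*, *Tbx18*, *Tbx3* and *Tbx2*, and *Smoc2*, which encodes a calcium-binding matrix protein known as a marker of sinus node cells. All 8 genes were measured, each through 1 probe set that the array annotation assigns to this gene alone. These were 8 of 34760 probe sets and 8 of the 19937 genes that have such a probe set.

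The sinus node is the primary pacemaker of the heart and arises at the venous pole, where the sinus venosus meets the right atrium. Its cells depolarise spontaneously, partly through a current that HCN channels carry when the membrane is hyperpolarised. *Tbx18* marks the precursors of the sinus horns and is also a gene of the epicardium, *Shox2* and *Isl1* are needed for the pacemaker programme, and *Tbx3* keeps chamber genes off in the node. *Isl1* also marks progenitor cells of the second heart field and neurons, and *Tbx2* acts mainly in the atrioventricular canal and outflow tract, so none of these genes is a measure of the node alone.

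The study asked which genes depend on *Chd7* in the developing heart, at 2 stages when the heart is being divided into chambers. Single whole hearts, labelled C57BL/6 (C57Bl/6 J in the methods), formed 4 groups of 4: Chd7fl/fl;Mesp1-Cre hearts at E13.5, control hearts at E13.5, Chd7fl/fl;Mesp1-Cre hearts at E11.5 and control hearts at E11.5. Mesp1-Cre recombines in early anterior mesoderm, so the myocardium, endocardium and epicardium descend largely from recombined cells, whereas neural crest cells in the same heart keep *Chd7*. The controls are WT in the labels and Chd7+/+;Mesp1-Cre in the methods, but the cross that the labels describe cannot give Chd7+/+ embryos, so the genotype of the controls could not be settled. Values are log2 expression after RMA, a procedure that corrects, normalises and summarises array probes. Because whole hearts were measured, fewer node cells and less RNA per node cell cannot be told apart.

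*Chd7* itself was lower in every mutant heart. Its brightest probe set read from 8.88 to 9.07 in mutant and from 9.83 to 10.3 in control hearts at E13.5, and from 9.16 to 9.73 in mutant and from 10.64 to 10.89 in control hearts at E11.5, and all 30 of its probe sets were lower in mutants at both stages. Markers of cardiac muscle averaged at least 12.65 in every heart, with all 10 measured. The mean of 12 lung, foregut and pharyngeal markers reached 7.0 in the highest control heart at E13.5 (group median 6.52). The highest mutant heart at E13.5 had 6.69. *Foxf1* likewise reached 9.87 in the control hearts of E13.5, where its median was 7.32. Whether other tissue was carried over with a heart was not tested. Between stages the arrays did not share 1 distribution, with an SD within an array of 2.38 to 2.42 at E13.5 and 2.18 to 2.26 at E11.5, so differences between stages are given with no test. In 3 hearts that stand apart, mutant replicates 3 and 4 at E11.5 and control replicate 1 at E13.5, between 21 and 38 genes lay over 1 log2 unit above every other heart of the stage. The labels give no sex, and the 3 measured Y-linked genes had median log2 FCs of −1.30 at E13.5 and −1.81 at E11.5. At E11.5 *Eif2s3y*, one of them, ranged from 8.26 to 9.18 in control hearts and from 4.0 to 8.38 in mutant hearts. At E13.5 it ranged from 3.79 to 9.98 in control hearts (median 7.41) and from 3.8 to 9.56 in mutant hearts (median 4.0). Sex is thus partly confounded with genotype at E11.5, and the medians differ in the same direction at E13.5. The part of sex in the results was not tested beyond a fit with these genes as a covariate.

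The sequence just upstream of the gene start is shown for *Hcn4*, *Shox2* and *Isl1*, the transcription factor and channel genes with the clearest genotype differences at E11.5 for which a sequence was at hand. The sequences come from RefSeq on build GRCm38.p6, which held an entry for 5 of the 8 genes, and each is the last 250 bases before the annotated start, 5′ to 3′ on the strand of the gene. Capitals mark AGGTGT, the core bound by T-box factors such as TBX3, and TAAT, the core bound by homeodomain factors such as ISL1 and SHOX2, on either strand. The AGGTGT and TAAT cores cannot share a match with each other.
Hcn4 (chr9:58822699-58822948, plus strand): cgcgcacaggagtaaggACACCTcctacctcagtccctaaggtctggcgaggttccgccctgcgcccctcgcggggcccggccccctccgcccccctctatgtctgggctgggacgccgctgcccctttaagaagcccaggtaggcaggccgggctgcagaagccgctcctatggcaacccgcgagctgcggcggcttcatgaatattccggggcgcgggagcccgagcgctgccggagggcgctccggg
Shox2 (chr3:66981772-66982021, minus strand): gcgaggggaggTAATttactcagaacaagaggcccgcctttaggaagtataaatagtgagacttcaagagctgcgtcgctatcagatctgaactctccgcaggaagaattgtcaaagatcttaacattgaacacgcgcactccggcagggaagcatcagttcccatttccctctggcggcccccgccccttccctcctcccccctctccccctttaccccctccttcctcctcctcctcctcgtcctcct
Isl1 (chr13:116309689-116309938, minus strand): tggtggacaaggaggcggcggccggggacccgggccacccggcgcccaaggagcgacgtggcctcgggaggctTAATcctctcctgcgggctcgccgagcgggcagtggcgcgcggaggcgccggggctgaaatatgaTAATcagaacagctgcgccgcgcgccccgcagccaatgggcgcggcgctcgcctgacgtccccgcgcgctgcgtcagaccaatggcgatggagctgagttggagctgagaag
The *Hcn4* window held 1 match to AGGTGT, read on the opposite strand as ACACCT. The *Shox2* window held 1 match to TAAT and the *Isl1* window held 2. Among 32851 windows of the same length, 11.8% held a match to AGGTGT and 54.9% a match to TAAT. A match is a description of letters and does not show binding.

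In mutant hearts at E13.5 *Smoc2* was 1.42-fold higher (95% interval 1.06 to 1.89), and the intervals of the other pacemaker genes included no difference, with log2 FCs between −0.38 (*Shox2*) and 0.22 (*Hcn2*). At E11.5 the mutant hearts had more *Shox2* (2.04-fold, 1.29 to 3.24), *Smoc2* (1.54-fold, 1.15 to 2.06) and *Hcn4* (1.32-fold, 1.09 to 1.60), and their *Isl1* was 0.74 times that of controls (0.60 to 0.90). None of these differences passed the threshold after adjustment over all probe sets. A gene was called where limma gave an adjusted p under 0.05 and the log2 FC, taken as mutant minus control, exceeded 0.5 in size.

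By this rule 0 of 8 genes were called at E13.5, where 0.0451% of all genes were, and 0 of 8 at E11.5, where 0.251% were. At an unadjusted limma p under 0.05, whatever the fold change, 1 of 8 passed at E13.5 (*Smoc2*), against 3.94% of all genes. At E11.5, 5 of 8 did (*Hcn4*, *Shox2*, *Isl1*, *Tbx3* and *Smoc2*), against 9.34% of all genes. With the threshold on the fold change added, *Smoc2* remained at E13.5, against 1.27% of all genes, and *Shox2* and *Smoc2* remained at E11.5, against 2.92%. The median log2 FC of the 8 genes was 0.02 at E13.5, with 4 positive, and 0.30 at E11.5, with 7 positive, whereas the median of all genes was 0.00 at each stage. The plot of log2 FCs by stage shows where each interval lies.

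**Figure D1:**
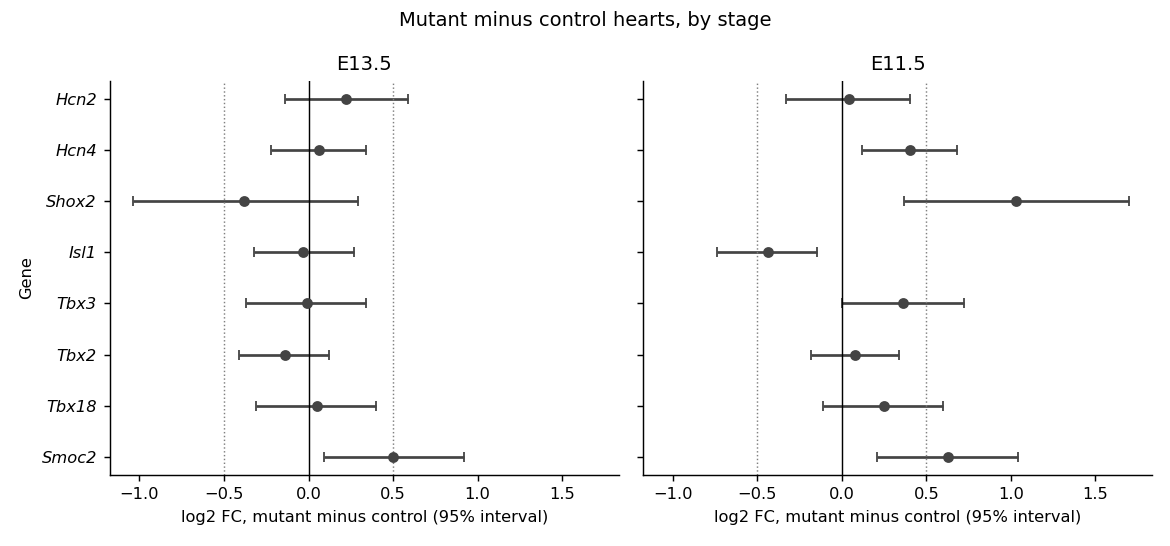
Log2 FC of each gene, mutant minus control hearts, at E13.5 (left) and E11.5 (right), from the limma fit of 16 hearts. Points are estimates, bars are 95% intervals and dotted lines mark the threshold of 0.5 in size. At E13.5 only the interval of Smoc2 (0.09 to 0.92) excludes 0, and at E11.5 the interval of Shox2 (0.37 to 1.70) lies furthest from 0.

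*Hcn4* encodes the main HCN channel of the sinus node and is also expressed more widely in the early embryonic myocardium. At E11.5 it read 10.34, 10.5, 10.42 and 10.35 in mutant hearts, against 10.13, 10.17, 9.88 and 9.84 in control hearts. Every mutant heart lay above every control heart, and the mutant hearts lay close together (SD 0.08, against 0.17 in controls). The log2 FC was 0.40 ± 0.13 (SE), with an adjusted p of 0.306 from limma, and the exact permutation test gave p = 0.0286 (2-sided), the smallest that 4 against 4 hearts can give. Such tests were run for all 8 genes at each stage, and their p values are not adjusted. At E13.5 *Hcn4* read 9.78, 9.61, 9.76 and 9.26 in mutant hearts, against 9.31, 9.45, 9.67 and 9.73 in control hearts. Here the groups overlapped over nearly their whole range, with a log2 FC of 0.06 (95% interval −0.22 to 0.34).

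*Hcn2*, a second HCN channel gene with a smaller part in the node, showed no difference past the threshold. At E13.5 it read 6.69, 7.07, 6.94 and 6.68 in mutant hearts, against 6.62, 6.45, 6.67 and 6.75 in control hearts. The 2 highest values were those of mutant replicates 2 and 3, and the other mutant hearts lay among the controls. Its log2 FC of 0.22 had an interval of −0.14 to 0.59. At E11.5 the mutant hearts ranged from 6.5 to 7.42 and the control hearts from 6.76 to 7.26, with a log2 FC of 0.04 (−0.33 to 0.40).

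*Shox2*, which encodes a homeodomain factor that holds back the chamber programme in the sinus node, had opposite signs at the 2 stages. At E13.5 it read 7.92, 6.57, 7.47 and 6.78 in mutant hearts, against 7.44, 7.77, 7.42 and 7.64 in control hearts. Mutant replicates 2 and 4 lay below every control heart, while mutant replicate 1 lay above every control heart. The SD was 0.62 in mutant and 0.17 in control hearts, and the log2 FC was −0.38 (−1.04 to 0.29). At E11.5 *Shox2* read 8.15, 7.94, 7.71 and 7.55 in mutant hearts, against 7.13, 7.59, 6.36 and 6.13 in control hearts. The SD was 0.26 in mutants, against 0.68 in controls, and only control replicate 2 reached into the mutant range. The log2 FC was 1.03 ± 0.31 (SE), with an adjusted p of 0.257 from limma and an exact permutation p of 0.0571.

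*Isl1* encodes a LIM homeodomain factor of second heart field progenitors and of pacemaker cells, and it was the one gene of the set with a lower mean in mutants at E11.5. It read 7.61, 7.12, 7.07 and 7.23 in mutant hearts, against 7.61, 7.43, 7.72 and 8.02 in control hearts. Mutant replicates 2, 3 and 4 lay below every control heart, and mutant replicate 1 equalled control replicate 1 to 2 decimals. The log2 FC was −0.44 ± 0.14 (SE), with an adjusted p of 0.277 from limma and an exact permutation p of 0.0857. By staining for the protein of *Isl1*, the paper found a similar spread of second heart field progenitors in mutant and control outflow tracts. That is protein in a part of the heart, whereas the arrays give RNA of whole hearts. Markers of autonomic neurons and glia, in which *Isl1* is also used, had a median log2 FC of −0.07 at E11.5, with 3 of 10 positive and *Dbh* dimmest, and their mean level ranged from 6.71 to 6.86 in mutant and from 6.77 to 6.98 in control hearts. Of the 10, *Stmn2* had the smallest p at E11.5, with a log2 FC of −0.81 (limma adjusted p = 0.314). Its log2 FC at E13.5 was 0.36. The part of these markers in the *Isl1* values was not tested. At E13.5 *Isl1* ranged from 7.25 to 7.56 in mutant and from 7.33 to 7.53 in control hearts, with a log2 FC of −0.03 (−0.32 to 0.27).

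*Tbx3*, whose product represses chamber genes in the conduction system, read 8.86, 8.58, 9.15 and 8.91 in mutant hearts at E11.5, against 8.98, 8.26, 8.38 and 8.45 in control hearts. All mutant hearts exceeded 3 of the 4 control hearts, and control replicate 1 lay within the mutant range. This gave a log2 FC of 0.36 (0.00 to 0.72), with an adjusted p of 0.525 from limma. Without the 3 hearts that stand apart the log2 FC was 0.20. At E13.5 the mutant hearts ranged from 8.35 to 8.84 and the control hearts from 8.43 to 8.87, with a log2 FC of −0.01 (−0.37 to 0.34).

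*Tbx2*, a close relative of *Tbx3* that represses chamber genes in the atrioventricular canal, did not pass the test at either stage. At E13.5 it read 8.53, 8.55, 8.58 and 8.45 in mutant hearts, against 8.83, 8.7, 8.54 and 8.61 in control hearts. The mutant values were tightly grouped at or below the low end of the control range, with a log2 FC of −0.14 (−0.41 to 0.12). At E11.5 the mutant hearts fell into a high pair (9.23 and 9.21) and a low pair (8.74 and 8.76), on either side of the control hearts (8.79 to 9.04), and the log2 FC was 0.08 (−0.18 to 0.34). The low pair was mutant replicates 3 and 4, which are also hearts that stand apart, and without the 3 hearts that stand apart the log2 FC at E11.5 was 0.31 (limma adjusted p = 0.316).

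*Tbx18*, needed for the sinus horns and the head of the node, did not pass the test at either stage. At E13.5 it read 10.96, 10.43, 11.14 and 10.37 in mutant hearts, against 10.67, 10.8, 10.73 and 10.52 in control hearts. Mutant replicates 1 and 3 lay above all controls and mutant replicates 2 and 4 below all of them, so the means nearly coincided, with a log2 FC of 0.05 (−0.31 to 0.40). At E11.5 the mutant hearts read 10.07, 9.49, 9.95 and 9.81, against 9.42, 9.68, 9.58 and 9.64 in control hearts, with a log2 FC of 0.25 (−0.11 to 0.60). Mutant replicates 1, 3 and 4 lay above all controls and mutant replicate 2 within their range.

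*Smoc2* had a higher mean in mutants at both stages. At E13.5 it read 9.69, 9.12, 10.05 and 9.27 in mutant hearts, against 8.91, 8.92, 9.18 and 9.1 in control hearts. Only mutant replicate 2 lay within the control range. The log2 FC was 0.50 ± 0.20 (SE), with an adjusted p of 1 from limma and an exact permutation p of 0.0571, and it was 0.33 without mutant replicate 3. At E11.5 *Smoc2* read 9.09, 8.24, 8.49 and 8.57 in mutant hearts, against 7.86, 8.16, 7.85 and 8.02 in control hearts. All mutant hearts lay above all control hearts. This gave a log2 FC of 0.63 ± 0.20 (SE), with an adjusted p of 0.275 from limma and an exact permutation p of 0.0286.

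**Figure D2:**
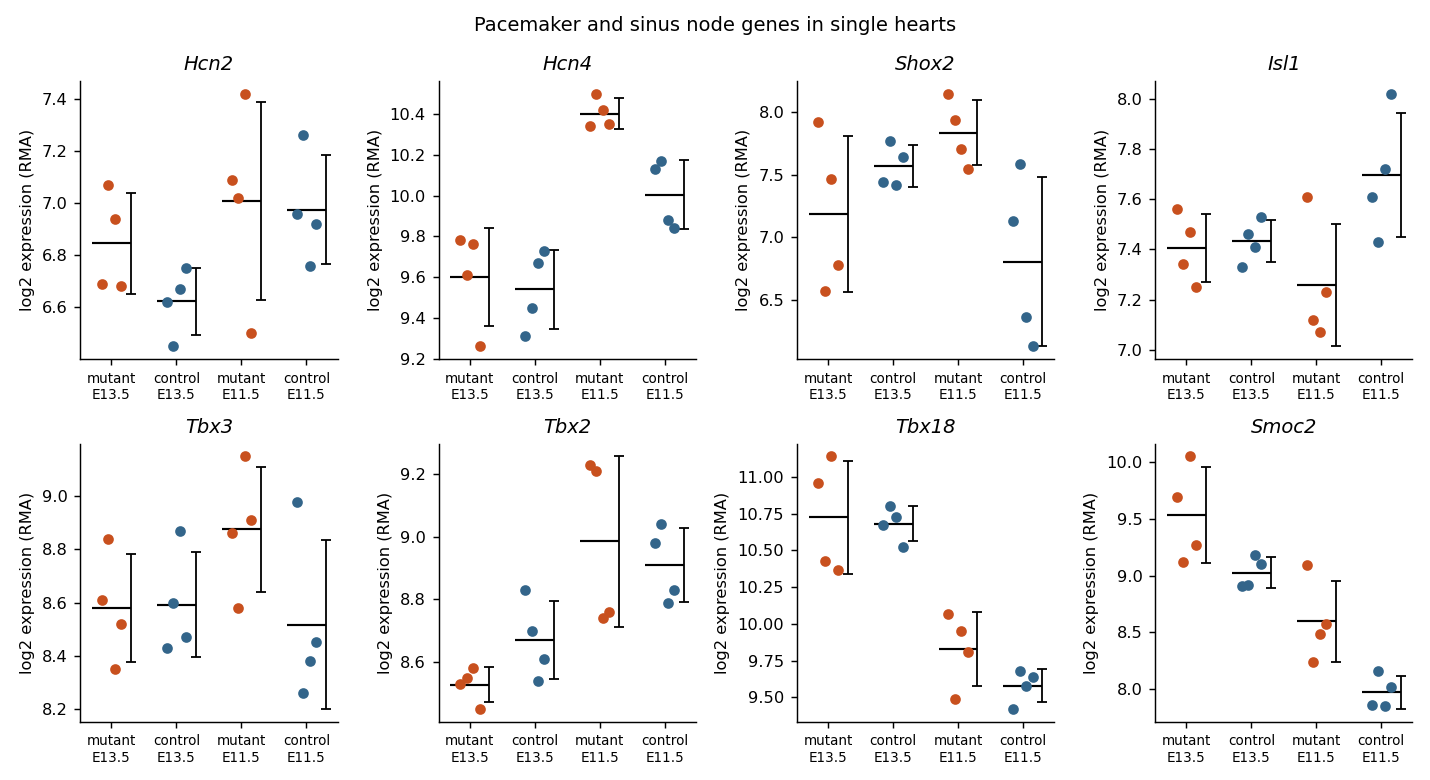
Log2 expression (RMA) of each pacemaker gene in the 16 single hearts, with 1 point per heart, mutant groups in orange and control groups in blue. Horizontal bars are group means and vertical bars are ± 1 SD (n = 4), and each panel has its own scale. At E11.5 the mutant and control hearts are fully apart for Hcn4 and Smoc2, and at E13.5 the mutant hearts are split for Shox2 and Tbx18.

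Counted over the set, mutant and control hearts did not overlap for 0 of 8 genes at E13.5, against 4.08% of all genes. At E11.5 they did not overlap for 2 of 8, *Hcn4* and *Smoc2*, with mutants higher in both, against 3.93% of all genes for either direction and 1.99% for mutants higher.

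Whether the genotype difference changed with stage was tested directly, as the log2 FC at E13.5 minus that at E11.5. Each log2 FC was taken within a stage, but the arrays of the stages differ in spread. The size of such a difference therefore rests on their scaling. No gene of the set passed, nor did any gene on the array (0% of 19937 at an adjusted p under 0.05), while 3.96% of all genes had an unadjusted limma p under 0.05. Of the set, *Shox2* alone did, with a difference of −1.41 (−2.35 to −0.47), an unadjusted p of 0.00599 and an adjusted p of 1. The difference for *Isl1* was 0.41 (0.00 to 0.83) and that for *Hcn4* was −0.33 (−0.73 to 0.06). For *Smoc2* it was −0.12 (−0.71 to 0.47). The *Shox2* means of both genotypes differed between stages, in opposite directions, with mutant hearts averaging 7.19 at E13.5 and 7.84 at E11.5, and control hearts 7.57 and 6.80.

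Between stages, *Tbx18* and *Smoc2* were higher and *Hcn4* lower at E13.5 in both genotypes. In mutant hearts *Tbx18* averaged 10.73 at E13.5 and 9.83 at E11.5, and in control hearts 10.68 and 9.58. *Smoc2* averaged 9.53 at E13.5 and 8.60 at E11.5 in mutant hearts, and 9.03 and 7.97 in control hearts. For both genes the hearts of the stages did not overlap in either genotype. *Hcn4* lay between 9.26 and 9.78 at E13.5 and between 10.34 and 10.5 at E11.5 in mutant hearts, and between 9.31 and 9.73 at E13.5 and between 9.84 and 10.17 at E11.5 in control hearts, again without overlap. Non-overlap between stages was common, at 39% of all genes in mutant hearts and 42.3% in control hearts, so it marks nothing particular to these genes.

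Because the arrays of the stages differ in spread, the differences were also taken after quantile normalisation over all 16 arrays. That of *Tbx18* was then 0.65 in mutant hearts (0.90 as deposited) and 0.87 in control hearts (1.10). For *Smoc2* it was 0.73 in mutant hearts (0.93 as deposited) and 0.91 in control hearts (1.06), and for *Hcn4* −1.03 in mutant hearts (−0.80) and −0.69 in control hearts (−0.46). These genes kept their direction. *Tbx2* was lower at E13.5 as deposited and after normalisation, with −0.46 and −0.65 in mutant hearts, where the stages did not overlap, and −0.24 and −0.41 in control hearts. *Hcn2* overlapped between stages in mutant hearts, with −0.16 (−0.11 after quantile normalisation), and was lower in every control heart at E13.5, with −0.35 (−0.27). *Tbx3* was −0.29 and −0.48 in mutant hearts, and in control hearts its sign depended on the scaling (0.08 as deposited and −0.08 after quantile normalisation). *Shox2* and *Isl1* overlapped between stages in both genotypes, with differences of −0.65 and 0.15 in mutant hearts and 0.76 and −0.27 in control hearts.

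**Figure D3:**
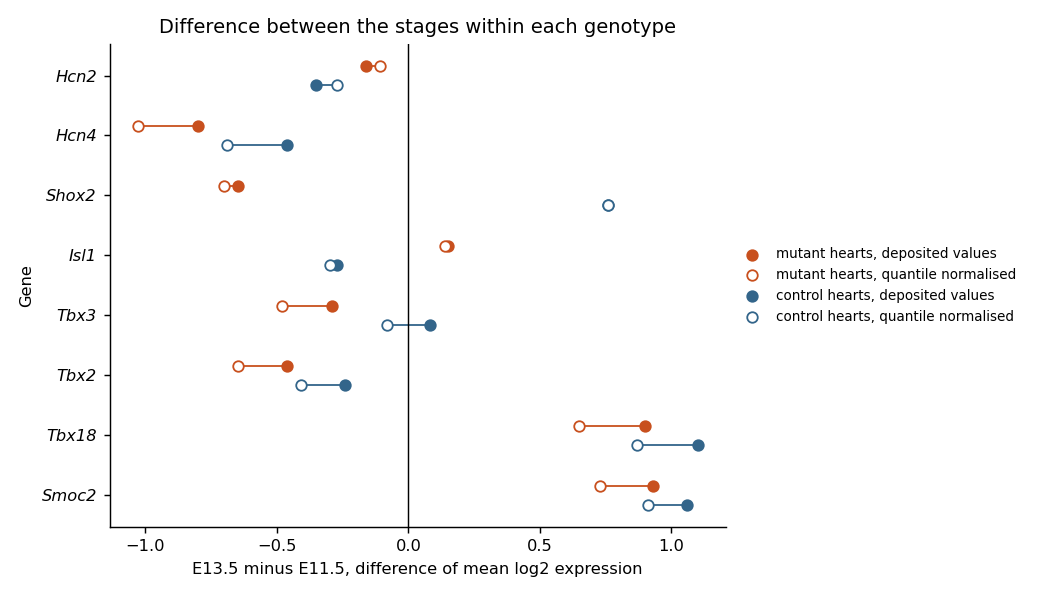
Difference of mean log2 expression, E13.5 minus E11.5, for each pacemaker gene within mutant hearts (orange) and control hearts (blue). Filled points are the deposited values and open points are those after quantile normalisation over all 16 arrays. Tbx18 and Smoc2 lie right of 0 and Hcn4 and Tbx2 left of it in both genotypes and by both scalings, while Tbx3 in control hearts crosses 0.

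In order of group means, taken from the deposited values and so resting across stages on their scaling, *Hcn4* ran mutant E11.5, control E11.5, mutant E13.5 and control E13.5, and only the last pair differed by less than its SDs. *Smoc2* ran mutant E13.5, control E13.5, mutant E11.5 and control E11.5, and each step was larger than the SDs of the groups on either side of it. *Tbx18* fell into a pair of E13.5 groups above a pair of E11.5 groups, where the E13.5 means lay within the larger SD and the E11.5 means differed by about that SD. For *Shox2* the order was mutant E11.5, control E13.5, mutant E13.5 and control E11.5. Mutant E11.5 lay just over 1 SD above control E13.5, and the other neighbours were within the larger of their SDs. *Isl1* ran control E11.5, control E13.5, mutant E13.5 and mutant E11.5, and its last 3 groups lay within the largest SD among them. *Hcn2* and *Tbx2* ran mutant E11.5, control E11.5 and then the E13.5 groups, with mutant before control for *Hcn2* and control before mutant for *Tbx2*. *Tbx3* was highest in mutant hearts at E11.5, and its other 3 groups were within their SDs of each other, with the 2 control groups changing places after quantile normalisation.

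Over the 16 hearts, after each group mean was subtracted, the pacemaker genes did not vary as 1 block. Of the 28 pairs, *Tbx18* and *Smoc2* had the highest correlation (r = 0.83), followed by *Hcn4* and *Shox2* (r = 0.62). The lowest was that of *Tbx3* and *Tbx2* (r = −0.38). Such correlations are a description, as the hearts share group, array and dissection. The 3 genes closest to *Smoc2* by the same measure were *Gas1* (r = 0.94), *Dlk1* (0.93) and *Cemip* (0.91), and those closest to *Tbx18* were *Ctsf* (0.90), *Aldh1a2* (0.90) and *Dlk1* (0.89). *Dlk1* was thus near both. Those of *Shox2* were *Gfra2* (0.87), *Tm9sf3* (0.86) and *Trp53rka* (0.85), and those of *Hcn4* were *Rap1gap* (0.87), *Sema4b* (0.82) and *Mrps18c* (0.80). *Isl1* was closest to *Smu1* (0.92), *C2cd2* (0.91) and *Socs5* (0.90). *Hcn2* was closest to *Pla2g2e* (0.89), *Tbx3* to *St6galnac2* (0.92) and *Tbx2* to *Car15* (0.90). Each list is the top of a search over all genes above percentile 40 of mean level, and high values are found for every gene of the set.

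Epicardial markers went with *Smoc2* and *Tbx18* over the hearts of a stage, a relation that rests on few hearts, as given below. The epicardium is the outer cell layer of the heart, and *Tbx18* is expressed there. All 10 epicardial markers measured had a higher mean in mutants at both stages, with 0 called by limma. These are markers of the same cell layer read in the same hearts, so they are not 10 separate observations. The paper reports that the epicardium of these mutants appeared to develop normally. At an unadjusted limma p under 0.05, 3 of 10 passed at E13.5, against 3.94% of all genes, and 1 of 10 at E11.5, against 9.34%. The median log2 FC of the 10 was 0.35 at E13.5 and 0.23 at E11.5, against 0.00 for all genes at each stage. The mean of the 10 ranged from 9.79 to 10.75 in mutant and from 9.57 to 9.85 in control hearts at E13.5, and from 9.65 to 10.24 in mutant and from 9.48 to 9.87 in control hearts at E11.5. The dimmest marker in each group was *Msln*, and none lay below percentile 40 of all probe sets.

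Heart by heart, mutant replicates 1 and 3 at E13.5 had the highest epicardial means, 10.27 and 10.75, and also the highest *Smoc2*, *Tbx18* and *Isl1* of the mutant hearts and the higher *Shox2*. Mutant replicates 2 and 4 at E13.5 had epicardial means of 9.79 and 9.88, near the controls. At E11.5 mutant replicate 1 had the highest epicardial mean (10.24) and the highest *Smoc2*, *Tbx18*, *Shox2* and *Isl1* of the mutant hearts. Mutant replicate 4 at E11.5 was close behind (10.17) but had the lowest *Shox2* of the mutant hearts (7.55), and its *Tbx18* (9.81) lay below that of replicate 3 (9.95), whose epicardial mean was 9.80.

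Across the 8 hearts of E13.5 the epicardial mean went with *Smoc2* (r = 0.93, exact permutation p = 0.0133, rho = 0.74, p = 0.0458), and across those of E11.5 the values were r = 0.76 (exact permutation p = 0.04) and rho = 0.62 (p = 0.115). For *Tbx18* they were r = 0.80 (exact permutation p = 0.0183) and rho = 0.43 (p = 0.299) at E13.5, and r = 0.71 (exact permutation p = 0.0628) and rho = 0.67 (p = 0.0831) at E11.5. Adjusted over these 4 relations, the p values of r were 0.0365 for both genes at E13.5, and 0.0534 for *Smoc2* and 0.0628 for *Tbx18* at E11.5. These tests were not planned and were run only for the 2 genes with the highest r within groups, given below. The adjustment does not cover that choice of genes, so these p values are a description only. Without the 2 hearts farthest from the median epicardial mean, r was 0.13 for *Smoc2* and 0.02 for *Tbx18* at E13.5, and 0.12 for *Smoc2* and 0.38 for *Tbx18* at E11.5, so the relations rest on those hearts. These correlations pool mutant and control hearts, so the difference between genotypes enters them, and within 1 genotype and stage there were only 4 hearts. As a description, over the 16 hearts with each group mean subtracted, r with the epicardial mean was 0.81 for *Tbx18*, 0.77 for *Smoc2* and 0.59 for *Isl1*, and between −0.31 (*Hcn2*) and 0.14 (*Shox2*) for the other genes. With the epicardial mean as a covariate, a fit chosen after the data were seen, the log2 FC of *Smoc2* was 0.17 at E13.5 (0.50 without it) and 0.39 at E11.5 (0.63). That of *Tbx18* was −0.24 at E13.5 (0.05) and 0.04 at E11.5 (0.25). At E11.5 that of *Shox2* was 0.96 (1.03) and that of *Hcn4* 0.39 (0.40). The epicardial markers themselves had higher means in mutants, so this covariate takes up part of the genotype difference of any gene that goes with it. *Smoc2* and *Tbx18* had been picked for going with it, so the change in their values is a description only. Whether more epicardial cells or more RNA per cell lie behind these values was not tested.

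**Figure D4:**
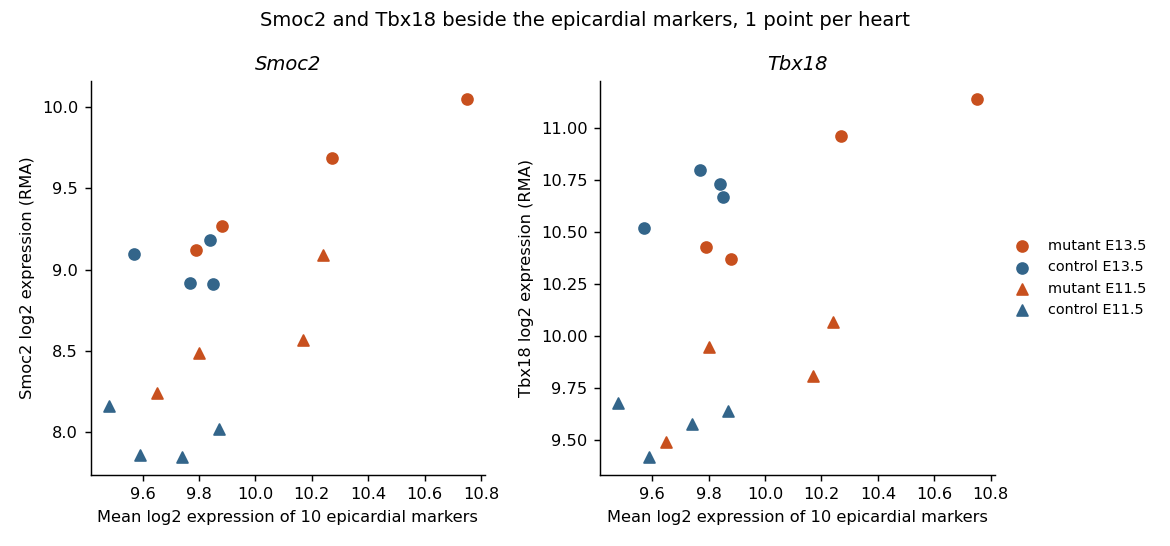
Log2 expression of Smoc2 (left) and Tbx18 (right) against the mean log2 expression of 10 epicardial markers, with 1 point per heart, mutant hearts in orange and control hearts in blue, E13.5 as circles and E11.5 as triangles. The 2 mutant hearts at E13.5 with epicardial means of 10.27 and 10.75 also have the highest Smoc2 and Tbx18 values, and the remaining hearts of that stage show no clear slope.

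Other genes of the pacemaker and of heart regions were read from lists chosen for their roles, with earlier results of these data known. Calls in these lists are therefore no independent support. The paper's own list from these arrays already holds *Rgs6*, *Etv1*, *Nr2f1* and *Rgs5*. Over all genes, 0.0451% were called at E13.5 and 0.251% at E11.5. Of 11 further channel and calcium handling genes of nodal cells, 0 were called at either stage. At an unadjusted limma p under 0.05, 1 passed at E13.5, against 3.94% of all genes, and 3 at E11.5, against 9.34%. The median log2 FC of the 11 was 0.01 at E13.5 and −0.03 at E11.5. The smallest p values were those of *Kcnj3*, a subunit of the acetylcholine-gated potassium channel, with log2 FCs of −0.85 at E13.5 (limma adjusted p = 0.203) and −0.45 at E11.5 (limma adjusted p = 0.446), and of *Cacna1d*, an L-type calcium channel of pacemaker cells, with −0.22 at E13.5 and −0.40 at E11.5 (limma adjusted p = 0.193).

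Of 12 other genes known from the node or the conduction system, 1 was called by its brightest probe set, and only at E11.5. This was *Rgs6*, a regulator of G protein signalling that limits the parasympathetic response of the node. It was upregulated in mutants at E11.5, where it averaged 9.3 ± 0.17 in mutant and 8.41 ± 0.15 in control hearts (SD, n = 4 each), with a log2 FC of 0.90 and an adjusted p of 0.00615 from limma. At E13.5 its log2 FC was 0.35, with an adjusted p of 1. In 2 of 28 alternative fits *Rgs6* lost its call at E11.5 (adjusted p up to 0.132). *Etv1*, a transcription factor gene of fast-conducting myocardium, had log2 FCs of −0.55 at E13.5 and −0.67 at E11.5 by its brightest probe set (limma adjusted p = 0.56 and 0.092). The other of its 2 probe sets was called at E11.5, with a log2 FC of −0.61 (limma adjusted p = 0.0127), and had −0.58 at E13.5 (limma adjusted p = 0.0509), so the call of *Etv1* depends on the probe set. *Tbx5* had a log2 FC of 0.20 at each stage.

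Genes that the nodal programme holds back were read from 11 chamber myocardium genes, of which 0 were called, with a median log2 FC of −0.01 at E13.5 and 0.15 at E11.5. *Gja5*, a gap junction gene of atrial and conducting myocardium that is low in the node, had log2 FCs of 0.52 at E13.5 (limma adjusted p = 0.122) and 0.24 at E11.5 (limma adjusted p = 0.496). *Smpx* had −0.14 at E13.5 and −0.08 at E11.5, and *Cited1* −0.17 and −0.34.

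At the venous pole, 1 of 11 atrial and sinus venosus genes was called at each stage, *Nr2f1*, a nuclear receptor gene of atrial identity. It was downregulated in mutants, averaging 6.8 ± 0.32 in mutant and 8.23 ± 0.21 in control hearts at E13.5 (log2 FC −1.43, limma adjusted p = 0.0366) and 7.58 ± 0.51 in mutant and 8.82 ± 0.17 in controls at E11.5 (log2 FC −1.24, limma adjusted p = 0.0277; SD, n = 4 each). The call was lost in 16 of 28 alternative fits at E13.5 (adjusted p up to 0.277) and in 10 of 28 at E11.5 (up to 0.241). *Angpt1*, an angiopoietin gene of atrial myocardium, had log2 FCs of −0.68 at E13.5 and −0.83 at E11.5 (limma adjusted p = 0.688 and 0.114). Of 11 genes of venous pole progenitors 0 were called, and the smallest p values were those of *Aldh1a2*, a retinoic acid synthesis gene that also stands among the epicardial markers (0.69 at E13.5 and 0.77 at E11.5), and of *Tbx5*.

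*Isl1* and *Tbx2* are also used in the outflow tract and atrioventricular canal. Of 12 outflow genes, 0 were called at E13.5 and 1 at E11.5, namely *Rgs5*, a gene of the mural cells of vessels that dampens G protein signalling. It was downregulated at E11.5, averaging 8.15 ± 0.95 in mutant and 10.19 ± 0.39 in control hearts (SD, n = 4 each; log2 FC −2.04, limma adjusted p = 0.034), a call lost in 13 of 28 alternative fits (adjusted p up to 0.293). At E13.5 its log2 FC was 0.32 (limma adjusted p = 1). *Sema3c*, a guidance cue of the outflow tract, had log2 FCs of −0.65 at E13.5 and −0.64 at E11.5 (limma adjusted p = 0.383 and 0.142). *Hand2* had −0.30 at E13.5 and −0.41 at E11.5. Of 12 atrioventricular canal and cushion genes 0 were called, while 1 was positive at E13.5 and 3 at E11.5, with medians of −0.20 and −0.19. Among them *Postn* had −0.30 at E13.5 and −0.37 at E11.5, *Has2* −0.53 and −0.65, and *Sox9* −0.24 and −0.40.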

How the data were processed

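RNA of 16 single whole hearts was measured by the study on Affymetrix Mouse Gene 1.0 ST arrays. The deposited log2 values were made by the authors with RMA in the affy R package, which corrects the background, quantile normalises the arrays and gives 1 value per probe set, and limma was their tool for differential expression. Versions, scan dates, and whether the stages were normalised in 1 run are not given in the sources used here. The number of arrays limits the precision.

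The values were used as deposited. Of 34760 probe sets, 21640 name 1 gene in the platform annotation, 1321 name several and 11799 none, and a gene with several probe sets is represented by the brightest. All 16 arrays entered 1 limma 3.58.1 fit (R 4.3.3) of 4 group means, which left 12 residual degrees of freedom. The method of Benjamini and Hochberg was applied over all probe sets of a comparison. The fit was tested on simulated data. The planned tests between stages were not run, because the array distributions of the stages differ. Exact permutation tests and correlations used SciPy 1.17.1, and figures matplotlib 3.10.9 under Python 3.11.15.

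The 8 genes and all lists were chosen with earlier results of these data known. All 8 are described. Of the other lists, called genes and the 2 genes with the smallest p in each genotype comparison are named, and genes alike to each member were taken from those above percentile 40 of mean level. Promoter sequences are from RefSeq (GRCm38.p6), whose coordinates are given for those windows only. Alternatives were other normalisations, priors, weights, filters and covariates, a replicate block, and leaving out hearts. The covariate of epicardial markers and the omission of the 3 hearts that stand apart were chosen after seeing the data. The tests of *Smoc2* and *Tbx18* against the epicardial mean were not planned.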

Additional observations from a re-analysis of the deposited data

How the results depend on the processing

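No gene of the set was called at an adjusted p under 0.05 in either genotype comparison, or in the test of their difference, under any alternative fit. With an unadjusted limma p under 0.05 as the rule, and a log2 FC over 0.5 in size for the genotype comparisons, 1 gene passed at E13.5, 2 at E11.5 and 1 in the difference. The log2 FCs at E11.5 kept their sign for *Hcn4* (0.34 to 0.45), *Shox2* (0.81 to 1.29), *Isl1* (−0.56 to −0.33), *Tbx3* (0.20 to 0.51), *Tbx18* (0.04 to 0.36) and *Smoc2* (0.39 to 0.74), as did *Smoc2* at E13.5 (0.17 to 0.64), over 28 alternatives each. The count of genes called over the whole array was less stable, from 1 to 39 over the alternatives at E13.5, against 9 with the settings of the report, and from 2 to 97 at E11.5, against 50. At both stages the low end was reached with each stage fitted alone, without the shared estimate of spread. At E13.5 it was also reached with the replicate block, which keeps that shared estimate.

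Signs turned for values near 0, and the cause was not tested. With each heart left out in turn, the log2 FC at E13.5 ranged from −0.01 to 0.18 for *Hcn4*, −0.08 to 0.02 for *Isl1*, −0.10 to 0.08 for *Tbx3* and −0.09 to 0.17 for *Tbx18*, and at E11.5 from −0.10 to 0.21 for *Hcn2* and 0.00 to 0.16 for *Tbx2*. The difference of *Smoc2* between stages in genotype effect then ranged from −0.29 to 0.04, and the stage difference of *Tbx3* in control hearts from −0.02 to 0.23. Without the 3 hearts that stand apart *Hcn4* at E13.5 was −0.01. With the Y-linked genes as a covariate *Tbx18* at E13.5 was −0.04, and with the epicardial markers it was −0.24 and *Tbx3* 0.05. The stage difference of *Tbx3* in control hearts was −0.08 after quantile and −0.11 after cyclic loess normalisation.

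The labels do not say whether replicate numbers pair the hearts. Deviations of mutant and control hearts with the same number correlated between −0.05 and 0.04, and those with different numbers between −0.17 and 0.13. Such correlations show no pairing but cannot settle whether littermates share a number. The replicate block joined hearts of the same number over both stages, although these are different embryos, so it does not test pairing within a stage. Control replicate 5 at E13.5 had no partner in it. With this block, *Isl1* was 0.02 and *Tbx18* −0.07 at E13.5, and no gene of the set was called. The genes called over the array then numbered 1 at E13.5 and 15 at E11.5. Each of the 8 genes has 1 probe set, so the median over probe sets gave no separate value. Tests between stages were not run under any alternative.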
